A study of Mus musculus with 32 samples.

Results

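The cytosolic ribosomal protein genes encode the protein part of the ribosome that translates nuclear-encoded mRNA. Members were the protein-coding genes whose symbols follow the Rpl, Rps and Rplp naming of ribosomal proteins (with an optional final a, l or x), plus Rpsa and Rpl22l1, with pseudogenes left out. This rule took 81 of the 31053 genes counted: 47 of the large subunit, 31 of the small subunit and the 3 stalk genes Rplp0, Rplp1 and Rplp2. All 81 also passed the filter on low counts, which kept 15280 genes. The rule used no measured value.

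Ribosomal proteins assemble with ribosomal RNA in the nucleolus, and subunits leave the nucleus almost complete. Because the particle needs its proteins in fixed proportions, the genes are usually expressed together, and many of their mRNAs start with a tract of pyrimidines (a 5′ TOP tract) through which nutrient and growth signals control their translation. Global translation is known to be low in mouse embryonic stem cells and to rise as they differentiate.

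The libraries came from C1, a mouse embryonic stem cell line that lacks β-catenin (its whole coding sequence is removed) and carries, through lentiviral infection, rtTA under the EF1a promoter and a doxycycline-inducible fusion of a destabilising domain, mCherry and the constitutively active S33Y form of β-catenin. Trimethoprim (TMP) stabilises the fusion protein, and doxycycline (dox) turns on its transcription. At day 0, C1 had TMP at 10 µM alone for 48 h in 2i/LIF and was sorted for living cells, while C1M and C1H had TMP with dox at 100 ng/mL for the same time and were sorted for middle and high mCherry. At day 4 of culture in NDiff227 without 2i/LIF, C1T came from C1 with TMP alone, C1MV and C1HV came from C1M and C1H with the vehicle DMSO (inducers withdrawn), and C1MDT and C1HDT came from C1M and C1H with dox and TMP kept. All 8 groups therefore share the β-catenin null background and the transgenes, and C1 and C1T carry the transgene uninduced. The day 4 groups from C1M and C1H are called induced below for their day 0 treatment, also where the inducers were withdrawn. Each group held 4 libraries labelled as biological replicates, and the deposited growth protocol names serum with LIF where the methods of the study name 2i/LIF for these samples.

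Each library was sequenced from the 3′ ends of mRNA (QuantSeq), so a count is a read at the end of a transcript and does not grow with transcript length. Counts on genes ran from 1366951 to 3648787 per library. Of all reads, 58.1% to 63.5% were not assigned to a gene, mostly because they aligned to more than 1 place (49.4% to 56.4% of reads). Reads on Ctnnb1, the β-catenin gene, were 5.21 to 10.8 CPM (counts scaled to a common library total) in C1, 9.64 to 18.0 CPM in C1M and 35.6 to 50.5 CPM in C1H, and the C1M libraries overlapped those of C1. At day 4 they were 7.00 to 11.7 CPM in C1T, 6.83 to 12.4 CPM for C1MV and 4.21 to 8.63 CPM for C1HV, and 25.7 to 33.6 CPM in C1MDT and 27.6 to 35.7 CPM in C1HDT, so that Ctnnb1 did not separate the fractions at day 4. Markers of naive pluripotent cells summed to 6448 to 6708 CPM in C1, 5147 to 5335 CPM in C1M, 5269 to 5559 CPM in C1H and 600.2 to 1807 CPM at day 4, with none of the 10 at 0 in any group. Markers of endoderm (6 genes) summed to 3.18 to 22.0 CPM in day 0 and C1T libraries and 77.4 to 134 CPM in the other day 4 libraries, with Afp and Sox7 at 0 in all C1 libraries and Afp at 0 in all C1MV libraries. Markers of formative epiblast (5 genes) summed to 91.8 to 152 CPM at day 0 and 666 to 1535 CPM at day 4, of neurectoderm (4 genes) to 26.2 to 39.6 and 103 to 201 CPM, of mesoderm (5 genes) to 32.9 to 60.4 and 12.1 to 28.6 CPM, and of fibroblasts (5 genes) to 11.2 to 21.7 and 7.13 to 22.0 CPM. The part of a shift in cell types in the results on ribosomal protein genes was not tested, and in these bulk samples fewer cells of a type and less RNA per cell cannot be told apart.

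The first transcribed bases of the members that the results turn on are given here to show which of them begin, in the annotation, with the C and run of pyrimidines that define a TOP start. Each line holds 12 bases before and 12 bases from the start annotated by RefSeq (GRCm38.p6, the strand of the gene, 5′ to 3′), with the pyrimidines that follow the start without a break in capitals. The first 4 lines have a C and at least 4 more pyrimidines, the next 3 are members with large changes that do not have them at the annotated base, and the last 3 are the divergent gene copies.
Rpl35, chr2:39005120-39005143, - strand: ccccgccctttcCTCTTTCTCTCg
Rpl15, chr14:18270975-18270998, - strand: ggagaaagccttCTTCCTTTCCTC
Rpl38, chr11:114668568-114668591, + strand: ggaagcctcgttCTTTCCCCgttc
Rplp2, chr7:141447639-141447662, + strand: gtcagcgtcttcCTTTCgccgccg
Rps12, chr10:23787198-23787221, - strand: cgtcatgcggccaccgccggcctt
Rplp0, chr5:115559455-115559478, + strand: ttcgggtttcgaggaccgcctggt
Rpl13a, chr7:45128734-45128757, - strand: accctgcgacaagacctcctcctt
Rpl22l1, chr3:28805496-28805519, + strand: cggcgcaagcccgttctcttccca
Rpl39l, chr16:10170216-10170239, + strand: ccaggcctttccggatttccggtg
Rpl10l, chr12:66284390-66284413, - strand: ggcctccattttgcggctggcggt

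A RefSeq promoter, a window around the annotated start, was found for 61 members. A TOP start at the annotated base was present in 13 of these (21.3%) against 2.67% of the 17492 protein-coding genes with a promoter. The GABP motif CGGAAG, on either strand, was in 67.2% of members and 23.5% of all these genes, the YY1 motif AAGATGG in 14.8% and 7.18%, and the SP1 motif GGGCGG in 60.7% and 49.2%. These are matches of letters in a fixed window. A tract at a start other than the annotated one would not be seen.

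The 81 genes took a larger share of all gene counts after 4 days of differentiation than before it. In C1 the share was 6.84%, 7.04%, 7.42% and 7.78% in the 4 libraries (mean 7.27% ± 0.413, SD), and in C1T it was 10.2%, 10.5%, 10.3% and 10.2% (10.3% ± 0.134). Every C1T library lay above every C1 library. Day 0 induction came with an intermediate share of 9.44% ± 0.265 in C1M and 8.20% ± 0.0745 in C1H, and the libraries of C1, C1M and C1H did not overlap. The other day 4 groups had 12.2% ± 0.531 in C1MV, 11.5% ± 0.527 for C1HV, 11.7% ± 0.213 for C1MDT and 12.3% ± 0.160 for C1HDT. Every library of these lay above those of C1T. Among these 4 groups the libraries overlapped. No p is given for a sum over the members. The shares of reads that aligned to more than 1 place averaged 50.1% in C1, 51.1% in C1H, 53.4% in C1M and 54.4% in C1T, the order of the share on members, and 53.5% to 55.3% in the induced day 4 groups. Their part in the result was not tested. The share on the mitochondrial chromosome averaged 2.35% in C1, 1.66% in C1T and between 0.679% and 0.862% in the induced day 4 groups. The share of reads on no annotated feature averaged 9.63% to 11.1% in the day 0 groups (10.1% in C1, lowest in C1M and highest in C1H), 6.66% in C1T and 5.07% to 6.17% in the induced day 4 groups, and its part in the result was not tested.

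**Figure D1:**
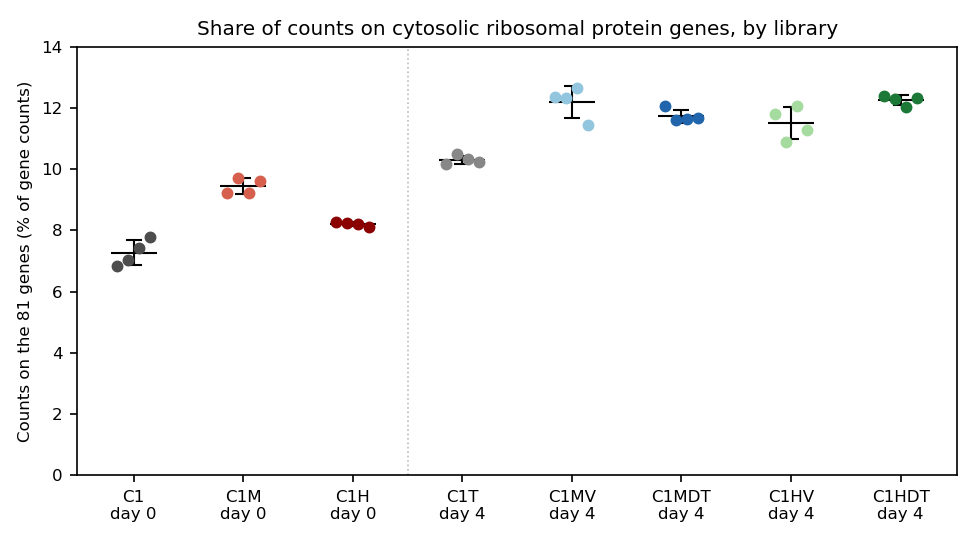
Percentage of gene counts on the 81 ribosomal protein genes (vertical axis) in each of the 32 libraries (points), by group, with mean and SD (bar and whiskers, n = 4) and a dotted line between day 0 and day 4. C1 sits lowest at 7.27%, C1M (9.44%) lies above C1H (8.20%), and the induced day 4 groups lie between 11.5% and 12.3% on average, above C1T at 10.3%.

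Both subunits took a larger share. Small-subunit genes took 3.58% ± 0.206 of counts in C1 and 5.21% ± 0.0846 in C1T, and large-subunit and stalk genes 3.69% ± 0.211 and 5.11% ± 0.0547. Rps20, a small-subunit gene singled out after its values were seen because it had the highest mean CPM of the members, was left out as a check, and the share was then 6.43% ± 0.402 in C1 and 9.54% ± 0.123 in C1T.

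C1T against C1 asks what 4 days without 2i/LIF do when β-catenin is absent. Of the 81 members 67 rose (24.4% of all 15280 genes tested did) and 2 fell (24.9% of all genes), by edgeR's quasi-likelihood test with Benjamini-Hochberg adjustment at an FDR under 0.05. The median log2 fold change was 0.65, against 0.01 over all genes tested. Of the small subunit 28 of 31 rose, of the large subunit 36 of 47, and all 3 stalk genes rose. The 2 that fell were Rpl10l and Rpl3l, copies of Rpl10 and Rpl3 known for expression in testis and in striated muscle. The 12 members that did not pass were Rpl10a, Rpl13, Rpl19, Rpl22l1, Rpl24, Rpl26, Rpl29, Rpl30, Rpl35, Rps15a, Rps20 and Rps6.

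Rps12 (small subunit; chr10:23785183-23787275, - strand, where gene positions are those of mm10) was among the members with the largest rises. Its level was 1213, 1286, 1407 and 1471 CPM in C1 and 4065, 4100.5, 4263 and 4150.00 CPM in C1T, a log2 fold change of 1.62 ± 0.065 (SE, edgeR adjusted p = 1.57e-52). The groups were far apart, and it was high in every day 4 group, from 3198 to 3853 CPM in C1HV to 3606 to 4152 CPM in C1HDT.

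At the other end, Rpl10l (chr12:66283379-66284401, - strand) had 57.9, 41.3, 61.3 and 60.4 CPM in C1 and 40.8, 44.97, 34.3 and 41.1 CPM in C1T, a log2 fold change of -0.46 ± 0.14 (edgeR adjusted p = 0.00312). The lowest C1 library fell within the C1T range. Rpl3l (chr17:24727820-24736143, + strand) had 3.78, 3.40, 5.19 and 6.23 CPM in C1 and 2.40, 0.416, 2.86 and 0.653 CPM in C1T, where 3 counts correspond to 0.822 to 2.19 CPM over the 32 libraries, and its log2 fold change of -1.51 ± 0.51 (edgeR adjusted p = 0.00961) rested on a few reads. This call was lost without C1T replicate 2 (adjusted p = 0.0716).

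Across all 8 groups, the mean level was lowest in C1 for 59 members (21.0% of all genes tested) and in C1H for 18 (12.6%), and highest in C1HDT for 29 (12.2%), C1T for 20 (18.8%) and C1MV for 19 (7.34%). For 58 members every day 4 library lay above every C1 library, as it did for 9.53% of all genes tested. The ratio of the highest to the lowest group mean was at least 1.20, with a median of 1.84, and the coefficient of variation between replicates had a median of 6.89%. Apart from the choice of Rps20, members were not ranked by level, because reads that align to more than 1 place were left out and this loss differs between members.

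**Figure D2:**
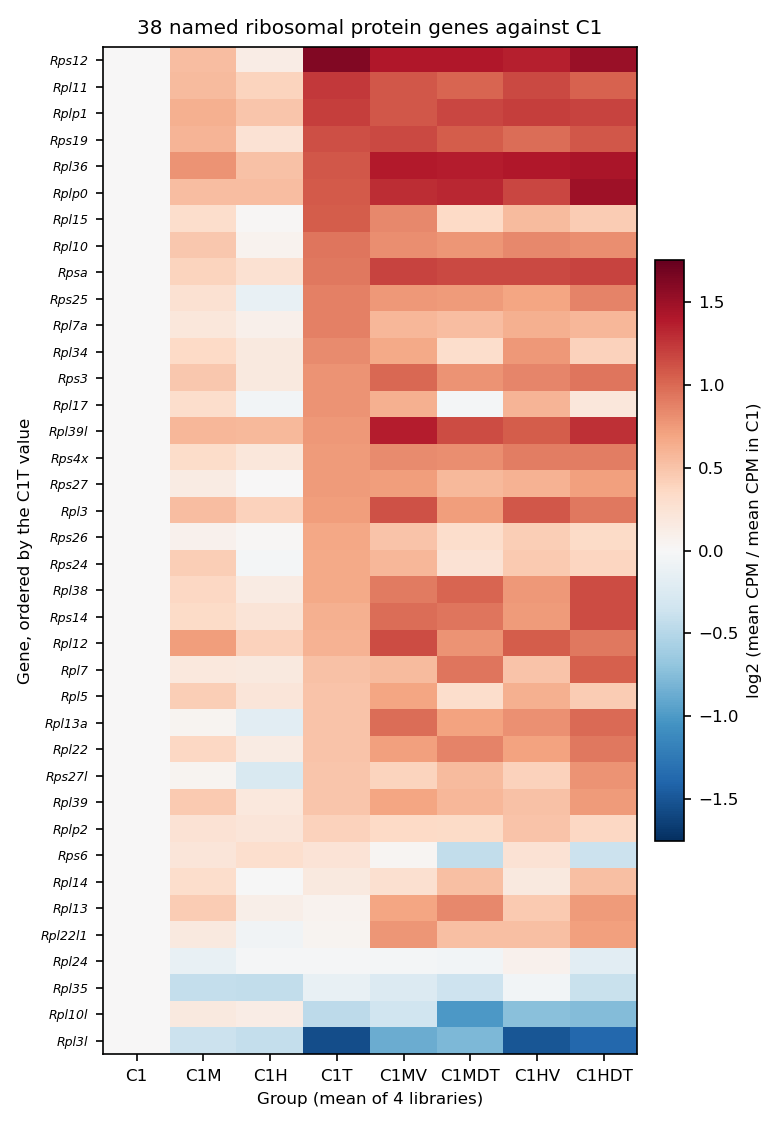
Colour shows the log2 ratio of each gene's mean CPM (4 libraries) to its mean in C1, for 38 named genes (rows, ordered by the C1T value) in the 8 groups (columns), with red higher and blue lower than C1. Most rows are red at day 4, with Rps12 at the top, while Rpl10l and Rpl3l at the bottom are blue and Rpl35 is blue or pale in every group.

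At day 0, C1M against C1 and C1H against C1 compare cells after 48 h of induction in 2i/LIF with uninduced cells. C1M and C1H had dox and were sorted on mCherry, while C1 had no dox and was sorted for living cells. The parts of β-catenin, dox and the sort gate in these comparisons cannot be told apart. In C1M 59 members rose (14.3% of all genes) and 1 fell (12.0%), with a median log2 fold change of 0.36 against 0.06 over all genes. In C1H 30 rose (13.8% of all genes) and 2 fell (12.1%), with a median of 0.17 against 0.04. Both comparisons share the C1 libraries. Of the 10 markers of naive pluripotent cells, 7 were lower and 1 higher in C1M and 5 lower in C1H, and their part in the result was not tested. Of the small subunit 26 of 31 rose in C1M and 15 in C1H. Without C1 replicate 1, the library with the lowest share, the count called in C1H against C1 went from 32 to 20, with 16 higher and 4 lower. The median was then 0.08, against 0.03 over all genes.

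Rpl36 and Rpl12, both of the large subunit, had the largest rises in C1M. Rpl36 went from 187, 247, 275 and 283 CPM in C1 to 427, 432, 422 and 422 CPM in C1M, a log2 fold change of 0.78 ± 0.11 (edgeR adjusted p = 3.37e-07). Rpl12 (chr2:32961559-32965345, + strand), part of the stalk base, went from 811, 889, 973 and 979.98 CPM to 1520.1, 1528, 1476 and 1548 CPM, and stood at 1215, 1198, 1264 and 1152 CPM in C1H. Its 3 day 0 groups did not overlap, with C1H in between, and the log2 fold change against C1 was 0.73 ± 0.064 in C1M and 0.40 ± 0.064 in C1H (edgeR adjusted p = 6.01e-20 and 7.81e-08). In C1H the largest rises were those of Rpl39l, with a log2 fold change of 0.55 ± 0.14, and of Rplp0, the stalk scaffold protein, with 0.53 ± 0.07 (edgeR adjusted p = 0.00160 and 1.45e-10).

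Rpl35 (large subunit; chr2:39001580-39005624, - strand) was the exception in both. It had 544, 570.1, 507 and 601 CPM in C1, 450.4, 390.2, 426 and 395 CPM in C1M and 475, 429.6, 367 and 370.4 CPM in C1H. Every induced library lay below every C1 library, with log2 fold changes of -0.42 ± 0.12 and -0.43 ± 0.12 (edgeR adjusted p = 0.0101 and 0.00785). Rps27l, the p53-responsive copy of Rps27, also fell in C1H, by 0.26 on the log2 scale (edgeR adjusted p = 0.00768), and lost the call when libraries were scaled by size alone (adjusted p = 0.0729).

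C1H against C1M asks whether the higher β-catenin fraction differs from the middle one. Members were lower in C1H: 27 fell (1.06% of all genes) and 0 rose (0.713% of all genes), with a median log2 fold change of -0.20 against -0.00027 over all genes. Only 2 members had a fold change above 0, none of them with an unadjusted p under 0.05, and DESeq2 also called 0 higher. By subunit, 15 of 31 small-subunit and 12 of 47 large-subunit genes fell.

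Rps24, with 2715, 2599, 2637 and 2392 CPM in C1M and 1892, 1899, 1921 and 1832 CPM in C1H, fell by 0.46 on the log2 scale (edgeR adjusted p = 2.20e-07). Rps12 fell by 0.41, from 1892, 1886, 1970.4 and 2058 CPM to 1471, 1369, 1528 and 1514 CPM (edgeR adjusted p = 6.93e-06). Neither gene's C1H libraries overlapped those of C1M. Compared with C1, Rps24 was higher in C1M by 0.43 ± 0.063 on the log2 scale, and its C1H mean of 1886 ± 38.3 CPM stood beside 1922 ± 113 CPM in C1 (SD, n = 4). The count of 27 depended on single libraries: it was 15 without C1M replicate 2, 15 without C1H replicate 1, 17 without C1H replicate 2 and 17 without C1H replicate 4. With C1H and C1M fitted alone the count was 40, all lower. Calls over all genes also rose in that fit, from 162 lower and 109 higher to 298 and 272.

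**Figure D3:**
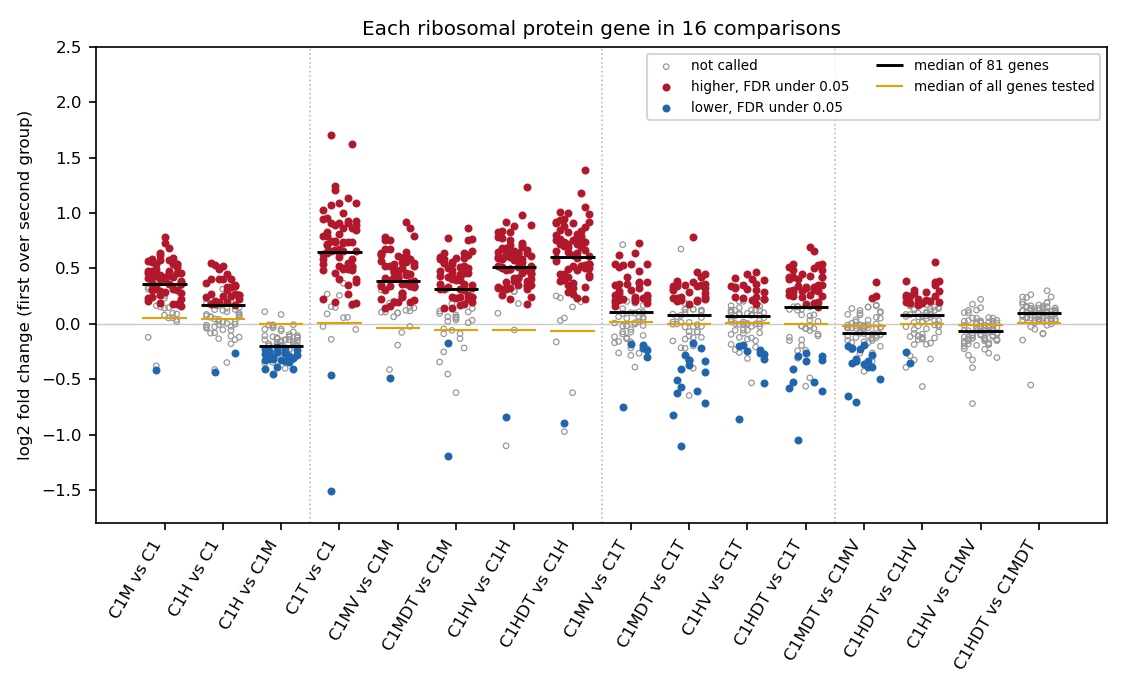
Log2 fold change (vertical axis) of each of the 81 genes in the 16 comparisons (first group over second), with red and blue points past an FDR under 0.05 in edgeR's test, open circles not past it, a black line at the median of the 81 genes and an orange line at the median of all genes tested. The medians lie above those of all genes in the comparisons of day 4 with day 0 (0.32 to 0.65), and below in C1H against C1M (-0.20).

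In the 4 groups with prior induction, members also rose between day 0 and day 4. In C1MV against C1M 63 rose (22.0% of all genes) and 1 fell (23.9%). In C1MDT against C1M 56 rose (24.5%) and 2 fell (27.9%). In C1HV against C1H 74 rose (22.0%) and 1 fell (25.1%). In C1HDT against C1H 70 rose (26.3%) and 1 fell (29.4%). The medians were 0.39, 0.32, 0.52 and 0.60 on the log2 scale, against -0.04, -0.06, -0.06 and -0.06 over all genes. The pairs of comparisons that start from C1M or from C1H share those libraries.

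Rps12 and Rpl13a had the largest rises, except in C1MDT, where Rplp0 (log2 fold change 0.77 ± 0.068) came after Rps12. The log2 fold changes of Rps12 were 0.87 ± 0.064 in C1MV, 0.87 ± 0.064 for C1MDT, 1.23 ± 0.064 for C1HV and 1.39 ± 0.064 for C1HDT, each against its own day 0 group, with edgeR adjusted p of at most 3.45e-26. Rpl13a, which outside the ribosome takes part in silencing of inflammatory mRNAs, had 187, 205, 193 and 178 CPM in C1M, 361, 341, 338 and 415 CPM in C1MV and 336, 298, 282 and 284 CPM in C1MDT, and 152, 164, 160.1 and 175 CPM in C1H, 361, 318, 332 and 265 CPM in C1HV and 381, 343, 393 and 352 CPM in C1HDT. Day 4 libraries lay above those of day 0 in each case. Its log2 fold changes were 0.92 ± 0.078, 0.64 ± 0.078, 0.98 ± 0.08 and 1.18 ± 0.078 in the same order (edgeR adjusted p of at most 7.26e-13). In C1T it went from 179, 178, 195 and 184 CPM in C1 to 246, 269.8, 271 and 250.03 CPM.

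Rpl10l fell by 0.49 on the log2 scale in C1MV, by 1.20 for C1MDT, by 0.85 for C1HV and by 0.90 for C1HDT (edgeR adjusted p of at most 0.000785). Its levels were 68.3, 57.8, 59.99 and 63.2 CPM in C1M and 31.1, 23.96, 25.7 and 28.9 CPM in C1MDT, which did not overlap. The only other decrease was that of Rps24 in C1MDT, by 0.17, and it did not pass when the scaling factors were computed without the ribosomal protein genes (adjusted p = 0.0614) or with any of several single libraries left out (adjusted p up to 0.187).

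The induced groups at day 4 were also set against C1T, the day 4 control that never had dox. C1T had TMP during differentiation, while C1MV and C1HV had DMSO in its place. Earlier induction and the lack of TMP cannot be told apart in C1MV and C1HV. Ctnnb1 averaged 9.22 CPM in C1MV and 6.31 CPM in C1HV, beside 9.39 CPM in C1T. In C1MV 34 members were higher (15.3% of all genes) and 6 lower (14.9%). In C1MDT 27 were higher (16.9%) and 16 lower (16.5%), a lower share close to the background. In C1HV 20 were higher (13.7%) and 9 lower (14.3%), which became 31 (16.9% of all genes) and 4 (11.5%) when libraries were scaled by size alone, a scaling that raised the median of all genes by 0.08 on the log2 scale and that of the members from 0.07 to 0.15. In C1HDT 39 were higher (17.4%) and 11 lower (16.1%). The medians ran from 0.07 to 0.15 on the log2 scale, against -0.01 to 0.01 over all genes. The 4 comparisons share the C1T libraries. The summed naive markers were 875 to 1076 CPM in C1T, 1473 to 1807 CPM in C1MV, 1392 to 1636 CPM in C1HV, 666 to 781 CPM in C1MDT and 600.2 to 831 CPM in C1HDT.

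The largest rise was that of Rpl22l1 in C1MV and C1HV and of Rpl13 in C1MDT and C1HDT. Rpl22l1, a copy of Rpl22 known for roles in splicing and blood cell development (chr3:28805436-28807424, + strand), had 72.5, 84.5, 73.9 and 77.03 CPM in C1T, 125, 139, 130.5 and 116 CPM in C1MV, 113, 98.4, 112 and 105 CPM for C1MDT, 97.7, 94.3, 113 and 122 CPM for C1HV and 129, 122, 108 and 127 CPM for C1HDT. Every induced library was above every C1T library. The log2 fold changes were 0.73 ± 0.10, 0.47 ± 0.10, 0.47 ± 0.11 and 0.66 ± 0.10 (edgeR adjusted p of at most 0.000167). Rpl13 of the large subunit was higher by 0.64 ± 0.064, 0.79 ± 0.064, 0.41 ± 0.064 and 0.70 ± 0.064 in the same order (edgeR adjusted p of at most 6.16e-08).

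Among the members that were lower were Rpl7a in C1MV (log2 fold change -0.30 ± 0.084), Rpl17 in C1MDT (-0.82 ± 0.15) and Rpl15 in C1HV and C1HDT (-0.53 ± 0.17 and -0.60 ± 0.17). All of these are large-subunit genes and passed in edgeR (adjusted p = 0.00255, 8.00e-05, 0.0133 and 0.00213). Rpl15 rested on counts of 36.2 to 44.3 CPM in C1T and 22.7 to 34.5 CPM in C1HV, and its call in C1HV was lost without C1HV replicate 1 or 3.

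**Figure D4:**
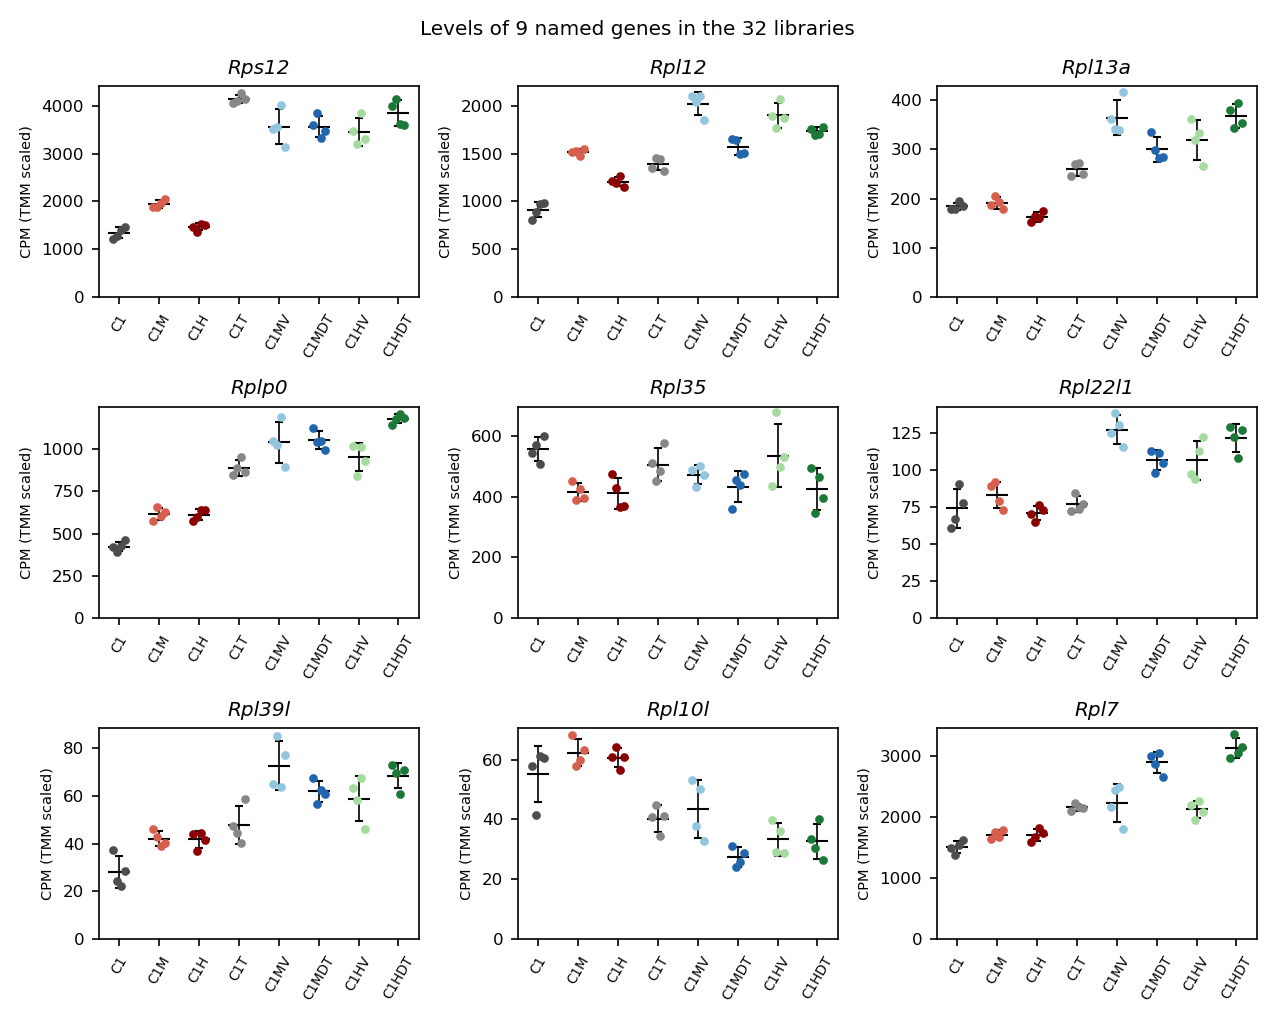
CPM (vertical axes, starting at 0) of 9 named genes in the 4 libraries of each group (points), with mean and SD (bar and whiskers). Rps12, Rpl13a and Rplp0 are high in every day 4 group, Rpl12 and Rpl22l1 are higher in the induced day 4 groups than in C1T, Rpl10l is low at day 4, and Rpl35 is highest on average in C1.

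Whether the day 4 change itself differed between induced and uninduced cells was tested as an interaction, the mean change of the 4 induced day 4 groups against C1M and C1H, minus the change of C1T against C1. This mean pools groups with inducers withdrawn and kept, and C1MV and C1HV lacked the TMP that C1T had. For 36 members it was lower in the induced groups (14.9% of all genes) and for 8 higher (13.5% of all genes), with a median difference of -0.18 on the log2 scale against -0.05 over all genes. Day 0 levels enter this difference, and 59 members were already higher in C1M than in C1. Among the named members, the difference was -0.72 ± 0.21 for Rpl15, -0.65 ± 0.12 for Rpl11, -0.60 ± 0.087 for Rplp1, -0.58 ± 0.18 for Rpl17, -0.54 ± 0.075 for Rps12 and -0.49 ± 0.078 for Rps19. On the higher side were Rpl22l1 (0.53 ± 0.13), Rpl13a (0.43 ± 0.095) and Rpl13 (0.35 ± 0.075). All of these passed in edgeR, with adjusted p of at most 0.0142, and those of Rpl15 and Rpl17 were lost without C1 replicate 1 (adjusted p = 0.0793 and 0.0802).

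Keeping dox and TMP through differentiation was compared with their withdrawal within each fraction. In the C1M fraction (C1MDT against C1MV) 15 members were lower (5.95% of all genes) and 3 higher (6.64%), with a median of -0.09 on the log2 scale. In the C1H fraction (C1HDT against C1HV) 22 were higher (9.10% of all genes) and 2 lower (6.88%), with a median of 0.08. Of the 10 naive markers 8 were lower with inducers kept in either fraction, and their part in the result was not tested. The split in the C1H fraction depended on the processing. It was 12 higher (7.18% of all genes) and 9 lower (8.71%) when libraries were scaled by size alone, which moved the median of all genes by -0.05. With DESeq2 it was 21 and 7, beside 1212 and 1177 over all genes. Without the filter on low counts it was 17 and 6, beside 1218 and 1069 over all genes. A filter of 1 CPM in all libraries gave 19 and 8, beside 1218 and 1197 over all genes. Fitting the 2 groups alone gave 16 and 6, beside 1254 and 1090 over all genes. The count of 24 called in the C1H fraction was 11 without C1HV replicate 2, 15 without C1HV replicate 4 and 15 without C1HDT replicate 4.

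No member was called for a difference between the fractions in this effect. The interaction called 0 of 81 members (0.00% of all genes) by edgeR, while 33 had an unadjusted p under 0.05 (8.40% of all genes) and DESeq2 called 4, of 20 among all genes. The median difference (C1H fraction minus C1M fraction) was 0.17 on the log2 scale, against 0.02 over all genes, and 71 of 81 members had a difference above 0, as did 8066 of all 15280 genes.

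Rpl7, Rpl14 and Rpl6 were called higher (4.37% of all genes) and Rpl34 lower (3.21% of all genes) in both fractions, all of the large subunit. These 4 genes among 81 are no more than the shares over all genes would give. Rpl7 had 2159.98, 2440.2, 2499 and 1812 CPM in C1MV and 3008, 2876, 3046 and 2665 CPM in C1MDT, and 2204, 1956, 2261 and 2079.96 CPM in C1HV and 2969.5, 3362, 3055 and 3147 CPM in C1HDT. In neither fraction did the groups overlap, and the log2 fold changes were 0.38 ± 0.064 and 0.56 ± 0.065 (edgeR adjusted p = 1.81e-06 and 2.33e-12). Rpl14 was higher by 0.25 ± 0.06 and 0.35 ± 0.06, and Rpl34 was lower by 0.35 in each, with calls that were lost without certain single libraries of the groups compared (adjusted p up to 0.117 in the C1M and 0.0791 in the C1H fraction). In the C1M fraction the largest decreases were those of Rpl10l (-0.71 ± 0.14) and Rpl17 (-0.65 ± 0.15), with edgeR adjusted p = 6.45e-05 and 0.00343. In the C1H fraction Rps14 of the small subunit had a log2 fold change of 0.39 ± 0.13 and Rpl24 of the large subunit -0.26 ± 0.094 (edgeR adjusted p = 0.0379 and 0.0436), both close to the threshold and lost under several alternatives.

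**Figure D5:**
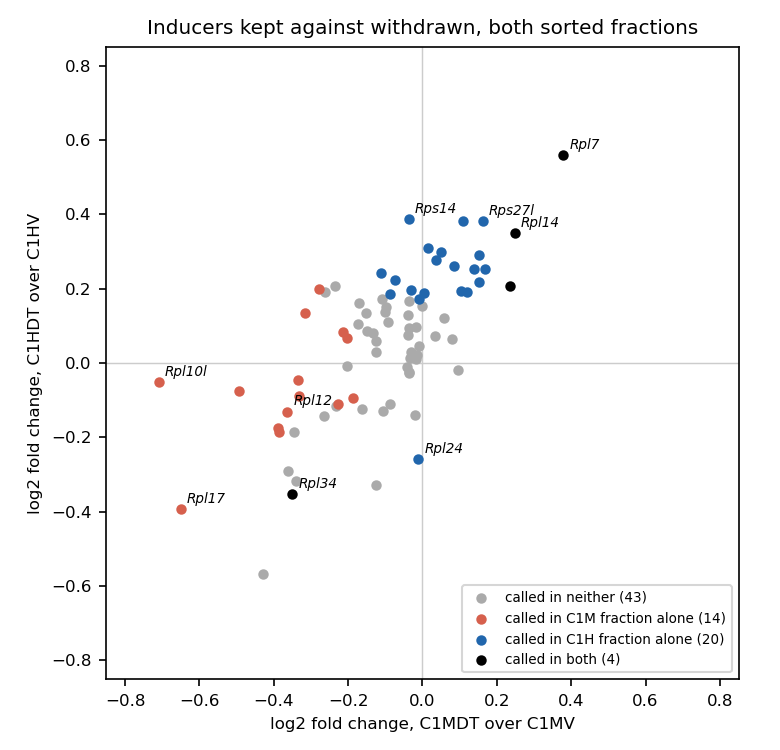
Log2 fold change of the 81 genes with inducers kept against withdrawn, in the C1M fraction (horizontal axis) and the C1H fraction (vertical axis), coloured by the comparison in which edgeR called them. Of the points 4 were called in both, 14 in the C1M fraction alone, 20 in the C1H fraction alone and 43 in neither, with Rpl7 at the top right and Rpl17 and Rpl10l at the left.

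No member was called between the fractions at day 4. C1HV against C1MV called 0 of 81 members by edgeR (0.00654% of all genes), with 21 members at an unadjusted p under 0.05 (7.53% of all genes) and 0 called by DESeq2. C1HDT against C1MDT called 0 (0.00% of all genes), with 15 members at an unadjusted p under 0.05 (5.33% of all genes) and 0 by DESeq2. The medians were -0.06 and 0.10 on the log2 scale, against -0.01 and 0.01 over all genes, and in the second comparison 73 of 81 members had a fold change above 0, as did 7938 of all 15280 genes.

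The gene copies did not all follow their parents. Rpl10 of the X chromosome rose in C1T by 0.95 ± 0.10 on the log2 scale while Rpl10l fell, and Rpl3 rose by 0.74 ± 0.076 while Rpl3l fell (edgeR adjusted p = 6.00e-15 and 1.97e-16 for the parents). Rpl39l (chr16:10170226-10174911, + strand) rose by 0.72 ± 0.15, in the direction of Rpl39 (0.49 ± 0.077). Its levels were 37.4, 24.3, 22.3 and 28.8 CPM in C1, 46.3, 42.9, 39.1 and 40.5 CPM in C1M, 44.3, 36.96, 44.3 and 41.6 CPM in C1H and 47.5, 44.6, 40.5 and 58.8 CPM in C1T, and 63.97 to 85.4 CPM in C1MV. The C1 and C1M libraries did not overlap, and neither did those of C1T and C1MV. Rps27 and Rps27l rose by 0.74 ± 0.073 and 0.49 ± 0.079, and Rpl22 by 0.49 ± 0.066. Rpl22l1 did not pass in C1T, whose libraries all lay within the range of C1 (60.9 to 90.8 CPM). Rps4x, the X-linked S4 gene, rose by 0.74 ± 0.08.

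Of the stalk proteins, which recruit translation factors to the ribosome, Rplp0 had 419, 389, 425 and 459 CPM in C1, 573, 657, 605 and 629 CPM in C1M, 573, 597, 640.5 and 639 CPM in C1H and 848, 889, 954 and 866 CPM in C1T. These 4 groups separated except for C1M and C1H, and C1HDT was higher still at 1142, 1179, 1207 and 1182 CPM. The log2 fold changes in C1T were 1.07 ± 0.07 for Rplp0, 1.21 ± 0.075 for Rplp1 and 0.40 ± 0.12 for Rplp2 (edgeR adjusted p = 9.83e-31, 1.74e-29 and 0.00791). Among the 18 comparisons Rplp2 passed in this one alone. Rpsa, the small-subunit protein also known as a laminin receptor, rose by 0.93 ± 0.069 in C1T and by 0.39 ± 0.068 in C1M (edgeR adjusted p = 1.33e-25 and 1.79e-06).

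Among members with known roles beyond the ribosome 8 rose in C1T and 1 did not pass, where 67 of all 81 members and 24.4% of all genes rose. Rpl11 and Rpl5, which bind Mdm2 together with 5S RNA and so stabilise p53, rose in C1T by 1.25 ± 0.11 and 0.50 ± 0.087 on the log2 scale. Rps19 and Rps26, mutated in Diamond-Blackfan anaemia, rose by 1.13 ± 0.067 and 0.68 ± 0.061. Rpl38, known for Hox mRNA translation, rose by 0.66 ± 0.066, Rps3, a DNA repair factor, by 0.79 ± 0.067, Rps25 by 0.89 ± 0.063 and Rpl13a by 0.50 ± 0.081. All 8 passed in edgeR, with adjusted p of at most 1.95e-07. Rps6, the S6 kinase substrate, had 20.6, 31.7, 31.1 and 25.4 CPM in C1 and 36.95, 23.7, 38.1 and 30.03 CPM in C1T (log2 fold change 0.26 ± 0.29, edgeR adjusted p = 0.486), groups that overlapped. Rps6 was measured imprecisely, with as few as 23 counts in a library and a mean coefficient of variation within groups of 26.2%.

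The 3′ ends of ribosomal protein genes have many processed copies in the mouse genome, and reads that align to more than 1 place were not counted. Among 100-base windows of the last 400 transcript bases, a median of 31.9% per member occurred also in annotated transcripts of another gene, 18 members shared no window, 25 shared at least 50% and Rpl5 and Rpl36a shared all. Of members described above, the share was 86.0% for Rps6 and Rpl13, 84.1% for Rpl10, 82.7% for Rpl7a, 74.1% for Rpl35, 73.3% for Rpl3, 70.6% for Rps12, 38.3% for Rpl13a and 19.7% for Rplp0, and Rpl12, Rpl39l and Rpl10l shared none. In C1T against C1, where 24.4% of all genes rose and 24.9% fell, 15 of the 18 members without a shared window rose and 2 fell, with a median of 0.49 on the log2 scale, and 18 of the 25 with 50% or more rose, with a median of 0.66. In C1M against C1 the medians were 0.30 and 0.44. The order was the opposite against C1T, with medians of 0.22 without a shared window and 0.01 with 50% or more in C1MV, 0.19 and -0.01 in C1MDT, 0.10 and 0.05 in C1HV and 0.30 and 0.07 in C1HDT. In C1MV against C1M they were 0.42 and 0.28. The differences between these classes were not tested. Of the 13 members with a TOP start at the annotated base 10 rose in C1T with a median of 0.66, and of the 48 without it 40 rose with a median of 0.66. The medians lay apart in C1MDT against C1M, at 0.08 (6 of 13 rose) and 0.32 (34 of 48 rose, beside 24.5% of all genes), and against C1T they were -0.12 and 0.10 in C1MDT and -0.02 and 0.15 in C1HDT. These differences were not tested either.

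Other genes of the translation machinery are given for the same comparison, C1T against C1, in which 24.4% of all genes rose and 24.9% fell. Of 7 further genes of the cytosolic ribosome 4 rose, among them Rpl36al (109 ± 5.59 CPM in C1 and 155 ± 10.2 CPM in C1T). Of 16 elongation factor and other TOP genes 12 rose and 2 fell, with the largest changes in the elongation factor Eef1d (208 ± 10.4 and 509 ± 24.5 CPM) and the nucleolar chaperone Npm1 (2187 ± 18.6 and 4504 ± 249.8 CPM). Of 53 ribosome biogenesis genes 40 rose and 1 fell, with the largest changes in Gar1, part of the RNA pseudouridylation complex (29.9 ± 7.96 and 100.3 ± 13.6 CPM), and the nucleolar protein Lyar (197 ± 13.5 and 469 ± 27.8 CPM). Of 77 mitochondrial ribosomal protein genes tested 39 rose and 3 fell, with the largest changes in Mrpl34 (90.5 ± 7.95 and 242 ± 14.5 CPM) and Mrpl27 (20.2 ± 3.20 and 52.7 ± 3.53 CPM). Of 14 regulators 7 rose and 2 fell, with the largest changes in Mycn (11.3 ± 1.71 and 48.5 ± 7.76 CPM) and Myc, which had 0, 0, 0 and 0.479 CPM in the 4 C1 libraries and 6.24, 4.58, 2.38 and 0 CPM in C1T.

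Counts in the other comparisons varied between these lists. In C1M against C1, where 59 of 81 members rose, against 14.3% of all genes that rose and 12.0% that fell, 6 of the 53 biogenesis genes rose and 15 fell, and 13 of the 77 mitochondrial ribosomal protein genes rose and 5 fell, so that the rises in the mitochondrial list were near the share over all genes. Of the 16 elongation factor and other TOP genes 6 rose and 1 fell in C1M, and of the 7 further cytosolic ribosome genes 3 rose. In C1MV, C1MDT, C1HV and C1HDT against C1T, biogenesis genes were lower in 30, 27, 31 and 26 of 53 cases and higher in 1, 3, 1 and 4, with medians from -0.38 to -0.24 on the log2 scale, where 14.3% to 16.5% of all genes were lower, while more members were higher than lower in each. The elongation factor and other TOP genes were higher and lower in 5 and 5, 7 and 3, 6 and 4, and 7 and 3 of 16 cases in the same order, and the mitochondrial ribosomal protein genes in 4 and 20, 11 and 20, 3 and 27, and 18 and 14 of 77. Regulators were higher in at most 1 and lower in 6 to 8 of 14 cases. In C1HDT against C1HV 30 of the 77 mitochondrial ribosomal protein genes were higher (9.10% of all genes) and 1 lower (6.88%). These counts describe the lists, and the difference between lists was not tested.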

How the data were processed

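RNA of 32 samples was measured by QuantSeq 3′ FWD sequencing, 4 libraries in each of 8 groups. C1M and C1H were sorted as subpopulations of the cells treated with dox and TMP. The labels do not say whether a C1M and a C1H library came from the same culture. After trimming (bbduk) and STAR alignment to mm10, the authors ran htseq-count on uniquely aligned reads, and the deposited values are these raw counts per gene. The rows for reads not assigned to a gene (58.1% to 63.5% of reads) were left out of library sizes and tests.

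Counts were tested with edgeR 4.0.16 (R 4.3.3) by the quasi-likelihood test with robust dispersions, TMM factors and 1 fit of all libraries, over the 15280 genes that reached 1 CPM in 4 or more libraries, at a Benjamini-Hochberg FDR under 0.05. Members' levels are CPM on TMM-scaled library sizes, and shares, Ctnnb1 and marker sums use library totals. DESeq2 1.42.0 was an alternative. In data simulated for C1T against C1 with a log2 change of 1, edgeR recovered 61% of 200 changed genes and 3.94% of its calls were false. Total counts of 1366951 to 3648787 set the precision, and intervals of counting error are not given. p-values measure the spread between libraries labelled as biological replicates. A figure legend of the study describes each heat map column as a mean over 4 samples of 1 experiment. Whether the spread covers separate experiments is therefore not known. No pair of replicates agreed within sampling noise (chi-square per gene of at least 1.55), which cannot show that they were separate experiments.

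The members and gene lists were chosen with earlier results of these data known. Named genes were the 2 largest rises and the 2 largest decreases per comparison among called members with at least 10 CPM on average, the paralogue sets, the stalk genes and Rpsa, members with known roles beyond the ribosome, and the 2 largest changes of each other list. Some results that this rule selects are not reported here. Same-numbered replicates did not deviate together (mean correlation -0.0016).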

Additional observations from a re-analysis of the deposited data

Results flagged for a closer look

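The share on members and the levels of the named genes, 312 sets of 4 libraries, were examined for a library far from the other 3 by Dixon's criterion, and 12 had one, where chance flags about 1 in 20. The lowest libraries were those of Rpl10l in C1 (41.3 CPM), Rpl13 in C1H (3466 CPM), Rpl15 in C1MDT (19.3 CPM), Rpl24 in C1M (109 CPM), Rpl7a in C1T (253 CPM), Rps19 in C1 (689 CPM), Rps25 in C1T (1893 CPM) and Rpsa in C1MV (1424 CPM). The highest were those of Rpl24 in C1HDT (135 CPM), Rps19 in C1MV (2186 CPM), Rps3 in C1MV (1871 CPM) and Rpsa in C1HV (1774 CPM).

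The day 4 change differed between the induced groups and C1T, by the interaction in edgeR's fit, for 36 members with a lower (14.9% of all genes) and 8 with a higher value (13.5% of all genes) in the induced groups, the 8 being below the share over all genes. Among named genes the log2 difference was -0.72 for Rpl15, -0.65 for Rpl11, -0.60 for Rplp1, -0.58 for Rpl17, -0.54 for Rps12 and -0.49 for Rps19. It was 0.53 for Rpl22l1, 0.43 for Rpl13a and 0.35 for Rpl13.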

How the results depend on the processing

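No printed log2 fold change of a named member changed sign under the alternatives run. Counts of members called were not judged for reversal. In C1HDT against C1HV they went from 22 higher and 2 lower to 12 and 9 with scaling by library size alone. Members called for the difference between fractions in the effect of kept inducers were 4 with DESeq2 and 1 without the filter on low counts, against 0. Leaving out 1 library at a time gave 20 to 33 called members in C1H against C1, 15 to 30 in C1H against C1M, 11 to 31 in C1HDT against C1HV and 0 to 1 for that difference between fractions. With other cytosolic ribosomal protein genes and pseudogenes added, the share of counts was 10.0% in C1M, 8.69% in C1H, 10.9% in C1T, 12.9% for C1MV, 12.2% for C1HV, 12.5% for C1MDT and 13.0% for C1HDT, and without mitochondrial counts it was 8.40% in C1H and 10.5% in C1T. In the labels, same-numbered replicates share only a number. With the replicate block 60 members were called in C1M against C1, 26 in C1H against C1M and 23 in C1HDT against C1HV. No count then moved by over 1.5 times. Of 101 called values of named genes, 11 lost the call without some library and 5 under another alternative, and the cause was not tested. Depth limits Rpl3l and Rpl29, the members under 10 CPM on average.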
